A study of Mus musculus with 30 samples.

Results

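The comparison described here asks whether microglia without Lrrk2 answer lipopolysaccharide (LPS) with changes of the same size as wild-type microglia. It is the LPS response of knockout (KO) cultures minus that of wild-type cultures, where a response is the log2 fold change of LPS-treated against control libraries. All libraries of the 4 groups were used, 21 of the 30 in the series: 6 KO control, 4 KO LPS, 5 wild-type control and 6 wild-type LPS libraries. All came from primary microglia of C57BL/6 mice, with an age given as postnatal day 21 and a genotype given as Lrrk2-/- or wild type. Controls carried the treatment label Control, and no source used here gives the dose of LPS, the time of exposure or the sex of the mice. The remaining 9 libraries, which received α-synuclein fibrils, entered the gene filter, the scaling and the estimate of the spread. They are not part of the LPS difference and otherwise serve only for a fibril comparison given beside it. The labels do not say whether replicates came from separate cultures or animals, so a p-value reflects only how far these libraries spread, and that spread may be technical.

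LPS is a component of the outer membrane of Gram-negative bacteria that is sensed on macrophages and microglia by Toll-like receptor 4 (Tlr4) with its co-receptors Cd14 and Ly96. The receptor signals through the adaptor Myd88 and the kinases Irak4 and Irak1 to NF-kB and MAP kinases, which switch on cytokine and chemokine genes, and through the adaptor Ticam1 to interferon regulatory factors and interferon β. NF-kB also induces its own inhibitors, which shut the response down again. Lrrk2 encodes a large kinase and GTPase that is linked to Parkinson's disease, acts on Rab proteins of membrane traffic and is expressed in cells of the myeloid lineage.

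Read counts assigned to genes ran from 8936310 to 33700695 over the 21 libraries, around a median of 20018465, and edgeR tested 14346 genes. Lrrk2, the targeted gene, separated the genotypes fully within each treatment. In controls it held 2.78 ± 0.879 CPM (SD, n = 6) in KO against 13.2 ± 2.56 CPM (n = 5) in wild type. CPM are read counts scaled to the normalized library total, or to the plain total for sums of markers. The LPS response of Lrrk2 itself differed between genotypes by 0.15 ± 0.30. The myeloid identity of the cultures was clear, with the 14 microglia identity markers summing to 8660 to 12900 CPM per library. Members of this list differed in level. Csf1r held 962 to 1714 CPM and Cx3cr1 76.2 to 266 CPM, while the homeostatic markers Tmem119 and P2ry12 were low. Group means were 5.64 to 8.88 CPM for Tmem119 and 8.44 to 10.5 CPM for P2ry12. The 10 markers of border macrophages summed to 2000 to 3070 CPM per library. Their levels were uneven, with Stab1 at 638 to 1451 CPM, Ms4a7 at 532 to 1050 CPM and F13a1 at 0.795 to 25.2 CPM. Markers of neutrophils and lymphocytes summed to at most 1.33 CPM, with Ly6g, Ncr1, Nkg7 and S100a9 at 0 in all 21 libraries. Libraries also differed in content beside genotype and treatment. Xist minus the mean of 4 Y-linked genes was 2.01 to 3.66 log2 CPM in its 4 libraries and 3.29 to 5.94 in the other 17, so the KO LPS group lay low with an overlap. Averaged markers of astrocytes, oligodendrocytes and fibroblasts split it into replicates 1 and 2 (0.36 and 0.10 log2 CPM) and replicates 3 and 4 (1.90 and 2.56). The 3 other groups spread more widely on that mean, from 0.57 to 3.37 in KO controls, from -0.78 to 2.60 in wild-type controls and from -1.26 to 2.80 in wild-type LPS libraries. The part of these contents in the results was not tested beyond the alternatives named beside them. In bulk RNA, fewer cells of a type and less RNA per cell cannot be told apart.

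**Figure D1:**
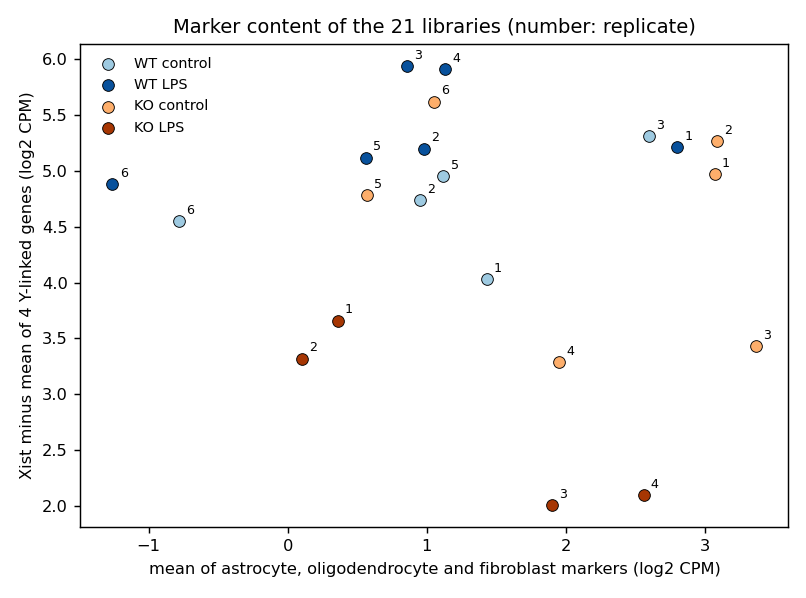
Marker content of the 21 libraries: the x axis gives averaged markers of astrocytes, oligodendrocytes and fibroblasts and the y axis Xist minus the mean of 4 Y-linked genes, both in log2 CPM, with 1 point per library coloured by group and numbered by replicate. The 4 KO LPS libraries lie at 2.01 to 3.66 on the y axis, and replicates 3 and 4 lie apart from replicates 1 and 2 on both axes.

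Regulatory sequences of 5 LPS-induced or signalling genes are shown because the letters that NF-kB is known to bind occur near the start sites of some of the most induced genes. Each is the 250 bases before the annotated start, from RefSeq on GRCm38.p6, 5′ to 3′ on the strand of the gene. Only entries with a match were kept for display. The Myd88 window lies before its RefSeq start but inside the longer span of that gene in the annotation used for counting. Capitals mark matches on either strand to the NF-kB letters (GGG, any pair of bases, TTTCC) or, in Myd88, to the interferon-response letters (GAAA, any pair of bases, GAAA). Cxcl1 (chr5:90890995-90891244, plus strand) and Cxcl2 (chr5:90903649-90903898, plus strand) encode neutrophil chemokines, Nfkbia (chr12:55492648-55492897, minus strand) and Tnfaip3 (chr10:19015411-19015660, minus strand) encode inhibitors of NF-kB, and Myd88 lies at chr9:119340019-119340268 on the minus strand.
Cxcl1: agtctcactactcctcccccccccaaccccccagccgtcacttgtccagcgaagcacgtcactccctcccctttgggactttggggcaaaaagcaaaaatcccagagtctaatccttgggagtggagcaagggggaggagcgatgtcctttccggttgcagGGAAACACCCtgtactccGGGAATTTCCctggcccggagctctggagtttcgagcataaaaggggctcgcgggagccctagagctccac
Cxcl2: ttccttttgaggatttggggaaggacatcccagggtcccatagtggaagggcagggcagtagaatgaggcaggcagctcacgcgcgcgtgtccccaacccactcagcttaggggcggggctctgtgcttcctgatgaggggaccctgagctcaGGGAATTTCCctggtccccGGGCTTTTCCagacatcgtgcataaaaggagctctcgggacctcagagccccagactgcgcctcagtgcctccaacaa
Nfkbia: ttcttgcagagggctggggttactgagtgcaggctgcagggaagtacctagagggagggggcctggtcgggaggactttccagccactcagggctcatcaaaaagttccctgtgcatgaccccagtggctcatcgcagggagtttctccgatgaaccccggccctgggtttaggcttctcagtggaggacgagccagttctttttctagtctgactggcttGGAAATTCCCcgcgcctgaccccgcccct
Tnfaip3: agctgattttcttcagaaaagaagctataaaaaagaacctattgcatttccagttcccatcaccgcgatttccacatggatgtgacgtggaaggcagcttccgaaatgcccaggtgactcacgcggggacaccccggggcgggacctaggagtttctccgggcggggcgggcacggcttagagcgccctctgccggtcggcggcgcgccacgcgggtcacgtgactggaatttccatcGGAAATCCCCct
Myd88: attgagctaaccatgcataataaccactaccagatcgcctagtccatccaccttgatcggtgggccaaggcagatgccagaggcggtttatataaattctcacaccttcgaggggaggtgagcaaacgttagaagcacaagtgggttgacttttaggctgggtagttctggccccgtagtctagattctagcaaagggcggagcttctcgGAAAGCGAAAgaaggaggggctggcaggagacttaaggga

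The Cxcl1 and Cxcl2 windows each held 2 NF-kB matches, starting 89 and 71 bases before the start site of Cxcl1 and 97 and 78 bases before that of Cxcl2. The NF-kB letters were found in 1.41% of all 32851 upstream windows in the table and in 1.77% of the 10331 tested genes with an entry. Among genes called for the response averaged over both genotypes, they were found in 32 of 1168 genes that rose (2.74%), in 9 of 111 that rose by 2 or more on the log2 scale (8.11%) and in 4 of 23 that rose by 4 or more (17.4%), namely Cxcl1, Cxcl2, Il6 and Tnfaip3. They were found in 32 of 1390 genes that fell (2.3%). Genes with an unadjusted p under 0.05 for the genotype difference held them in 0 of 173 cases where the KO response was more positive and in 7 of 273 (2.56%) where it was more negative. The interferon-response letters were found in 3.47% of tested genes, in 3.34% of those that rose and in 3.66% of those with a more negative KO response at that p. A match is a description of letters, not of binding, and no match says nothing of a factor.

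Both genotypes mounted a large response. In wild type 1019 genes rose (7.1% of those tested) and 1152 fell (8.03%) at an edgeR adjusted p under 0.05, and in KO 912 rose (6.36%) and 1055 fell (7.35%). Of these, 1374 genes were called in both, which is 63.3% of the wild-type calls and 69.9% of the KO calls, and all 1374 moved in the same direction. Another 797 genes were called in wild type alone, of which 758 moved the same way in KO, and 593 were called in KO alone, of which 536 moved the same way in wild type. A call in 1 genotype does not show a difference. The difference itself had an edgeR unadjusted p under 0.05 for 105 of the 797 and 160 of the 593. Over all 14346 genes 600 had one (4.18%). Both sets were chosen by a call in 1 genotype alone, which favours a difference, so these counts are a description.

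No gene was called for the difference between genotypes. Of 14346 genes 0 (0%) had an adjusted p under 0.05 in edgeR, in DESeq2 or in limma-voom, and 600 (4.18%) had an unadjusted p under 0.05 in edgeR, which is below the 5% that such a threshold passes when p-values are spread evenly. DESeq2 had 728 genes and limma-voom 683 at that unadjusted p. In edgeR the KO response was more positive for 246 of the 600 (1.71%) and more negative for 354 (2.47%). An unadjusted p under 0.01 was reached by 95 genes and one under 0.001 by 9 genes. The smallest p, 0.000126 for Lpcat3, corresponded to an adjusted p of 0.992. The fibril response difference between genotypes, which uses the same control libraries, also had 0 called genes and 1667 (11.6%) at an unadjusted p under 0.05.

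The sizes of the responses were close. Sizes were compared over the 3319 genes called for the response averaged over both genotypes (23.1% of those tested), and 3314 of them moved in the same direction in both. A call on the average favours genes whose responses share a direction, so this count is a description that the choice of genes largely fixes. The share with the same direction was 69.6% over all genes tested and 60.5% over the 11027 genes not called. The 5 exceptions were Ptges2, Yif1b, Uty, Cldn1 and Gm8822. Across the 3319 called genes the 2 responses had a Pearson correlation of 0.935 and a slope of KO on wild type of 0.942 (total least squares). The correlation was 0.674 over all 14346 genes and 0.174 over the 11027 not called. Choosing genes by their mean response raises the first correlation and lowers the last, so both depend on the choice. Genes are not independent replicates, so none of these values carries a p. With the sign set so that a positive value is a larger response in KO, the median difference over the 3319 genes was -0.01. Its quartiles were -0.16 and 0.13, and 47.2% of these genes had the larger response in KO. The median absolute difference of 0.15 was smaller than the median standard error of a single difference, 0.20. Which genotype had the larger response depended on libraries: without KO LPS replicates 3 and 4 the slope was 1.31 and the median difference 0.086, and with Xist minus Y-linked genes as a covariate they were 1.09 and 0.069.

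**Figure D2:**
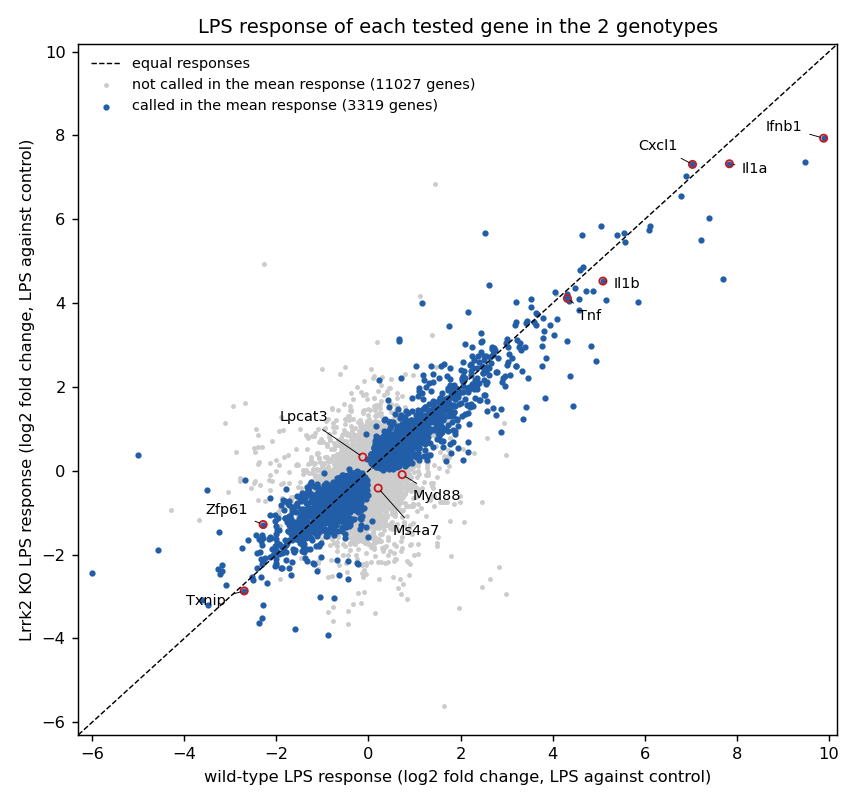
LPS response of each tested gene in wild type (x axis) and in KO (y axis), both as log2 fold change of LPS against control: blue points are the 3319 genes called for the averaged response, grey points the 11027 others, red rings mark named genes and the dashed line marks equal responses. Blue points follow the dashed line over the whole range of sizes. Their Pearson correlation is 0.935, a value raised by choosing them on their mean response. Named genes off the line, such as Myd88 and Ms4a7, lie near the centre.

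How closely a single gene could be compared depended on its level and its response. The 95% interval of the difference lay within 1 log2 unit of 0 on both sides for 2502 of the 3319 responsive genes (75.4%), beside 61% of all genes tested. Among responsive genes with a mean of at least 2 log2 CPM it did so for 2347 of 2665 (88.1%), with a median absolute difference of 0.12. Among all genes below that level it did so for 9.79%, and their median standard error was 0.76. Large inductions were less precise than responsive genes as a whole. For the 31 genes that rose by 4 or more on average, the median standard error, available for 26, was 0.59. Of the 31 genes 12.9% had an interval that narrow.

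Medians over the larger inductions lay below 0, a smaller response in KO. The median difference was -0.29 for the 31 genes that rose by 4 or more, of which 10 were larger in KO. The median response of these 31 genes had the opposite order, 5.16 in wild type and 5.45 in KO, and 26 of them had an interval. The median difference was -0.14 for 133 genes that rose by 2 to 4 and -0.10 for 257 genes that rose by 1 to 2. For 1105 genes that rose by less than 1 it was 0.00. Genes that fell showed medians of -0.09 for 43 genes with a fall of 2 to 4, -0.05 for 321 genes with a fall of 1 to 2 and 0.00 for 1428 genes with a smaller fall. These are medians over genes of the same 21 libraries and were not tested, and they were not recomputed under the 2 settings that turned the overall direction.

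At the receptor level the response of Tlr4 was close between genotypes, and most of its adaptors and kinases had the more negative response in KO. Tlr4 held 234, 211, 212, 223 and 232 CPM in wild-type controls and 160 to 202 CPM (median 183) in wild-type LPS libraries. In KO it held 183 to 273 CPM (median 212) in controls and 180, 179, 183 and 185 CPM with LPS. Its response differed by 0.02 ± 0.15 (95% interval -0.29 to 0.33). Of 23 measured Toll receptors and adaptors, 20 had a more negative response in KO, with a median of -0.35 against a median of -0.01 over all genes, and 0 were called. Those with an unadjusted p under 0.05 were Irak4, Myd88, Irak2 and Traf3 (-0.41 ± 0.18), all more negative in KO. The median of the list moved to 0.02 with Xist minus Y-linked genes as a covariate, a score that is low in the KO LPS group.

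Myd88, the shared adaptor of most Toll receptors (chromosome 9, 119335934 to 119341411), rose with LPS in wild type and was not called in KO. It held 34.3, 53.4, 45.0, 53.9 and 37.7 CPM in wild-type controls and 70.0 to 79.9 CPM (median 73.5) with LPS. In KO controls it held 17.8 to 53.8 CPM (median 37.6) and in the KO LPS libraries 30.4, 43.0, 38.4 and 25.9 CPM. All 6 wild-type LPS libraries were above all 5 controls and above all 4 KO LPS libraries, while KO LPS libraries lay within the range of their controls. Over all genes, KO and wild-type libraries did not overlap for 8.29% with LPS and for 0.725% in controls, and control and LPS libraries did not overlap for 11.5% in wild type and 10.2% in KO. The response was 0.73 ± 0.20 in wild type (edgeR adjusted p = 0.0101) and -0.09 ± 0.21 in KO (adjusted p = 0.843), a difference of -0.82 ± 0.29 (95% interval -1.41 to -0.23, unadjusted p = 0.00855, edgeR adjusted p = 0.992). With the Xist covariate it was -0.20 (unadjusted p = 0.501).

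Irak4, the kinase that Myd88 recruits, lies on chromosome 15 (94543643 to 94581815), as Lrrk2 does. It held 32.5, 39.7, 34.3, 32.1 and 30.4 CPM in wild-type controls and 28.5 to 33.4 CPM (median 32.5) with LPS. KO libraries were lower in both treatments, at 18.6 to 24.3 CPM (median 21.3) in controls and 16.1, 16.3, 16.8 and 14.2 CPM with LPS. KO LPS libraries were all below KO controls, whereas the wild-type groups overlapped. The responses of -0.09 ± 0.08 and -0.44 ± 0.08 differed by -0.35 ± 0.11 (95% interval -0.58 to -0.12, unadjusted p = 0.0041). Irak2, a kinase of the same complex that NF-kB induces, held 90.7 to 132 CPM in wild-type LPS libraries and 80.9, 84.0, 85.2 and 75.1 CPM in KO LPS libraries, with no overlap. Its response was 0.92 ± 0.14 in wild type and 0.35 ± 0.15 in KO, a difference of -0.56 ± 0.20 (unadjusted p = 0.0106). Irak2 differed by -0.29 (unadjusted p = 0.22) and Irak4 by -0.25 (unadjusted p = 0.0773) with the Xist covariate.

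NF-kB genes and their feedback inhibitors rose in both genotypes. Of 22 measured genes 16 rose in wild type and 15 in KO, and the median difference was -0.11 with 0 called. Nfkbia, which encodes the inhibitor IκBα, held 92.3, 81.4, 153, 119 and 117 CPM in wild-type controls and 649 to 1273 CPM (median 861) with LPS. In KO it held 68.4 to 148 CPM (median 115) in controls and 893, 913, 881 and 873 CPM with LPS, within the range of the wild-type LPS libraries. The responses of 2.99 ± 0.18 and 3.06 ± 0.19 differed by 0.07 ± 0.26 (95% interval -0.47 to 0.61). Tnfaip3, a ubiquitin-editing inhibitor, rose by 4.30 ± 0.18 and 4.21 ± 0.19, a difference of -0.09 ± 0.26 (95% interval -0.63 to 0.45). At an unadjusted p under 0.05, Ikbke (-0.89 ± 0.38), Tnip1 (-0.54 ± 0.25), Rela (-0.32 ± 0.15), Nfkb1 (-0.34 ± 0.17) and Nfkbid (-0.44 ± 0.21) were more negative in KO and Ikbkg (0.46 ± 0.20) more positive. With the Xist covariate Ikbke was -0.04, without KO LPS replicates 1 and 2 Ikbkg was 0.16, and without replicates 3 and 4 Tnip1 was -0.30.

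**Figure D3:**
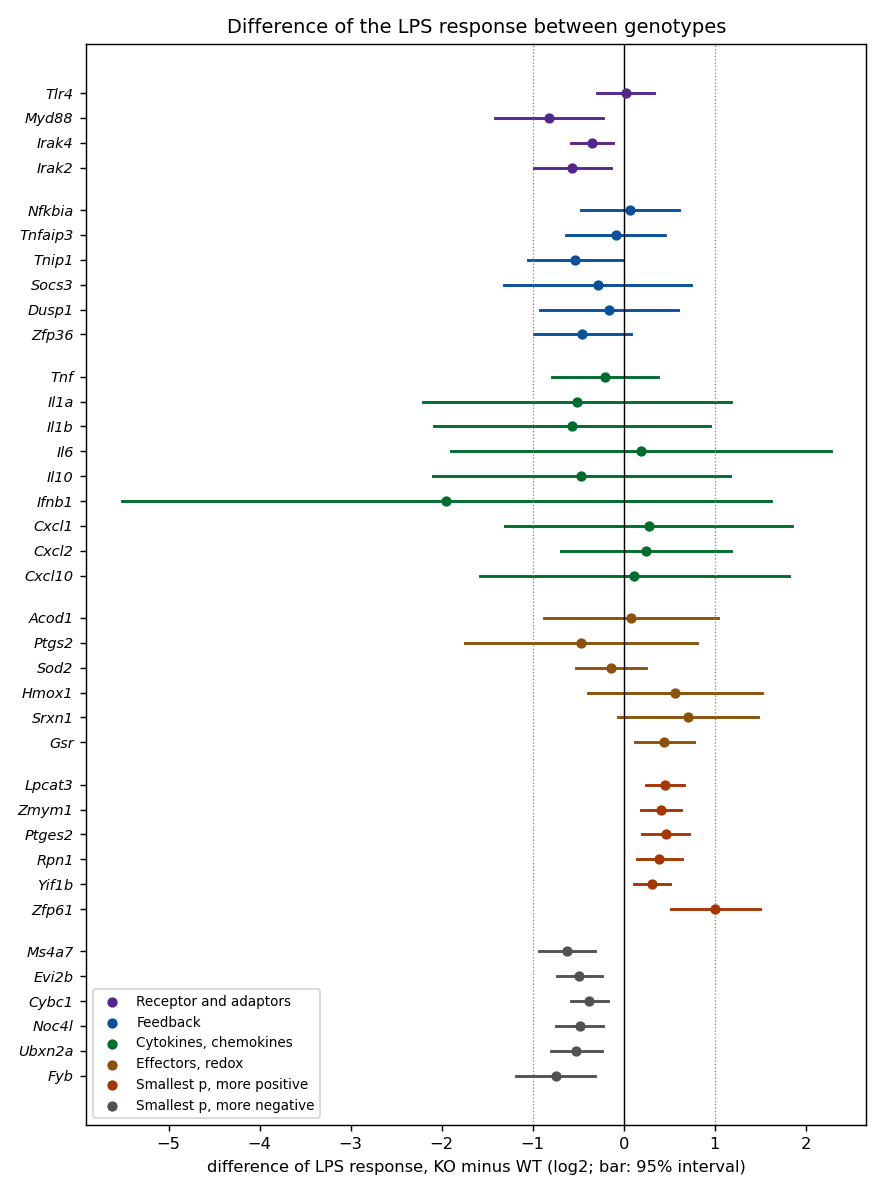
Difference of the LPS response between genotypes, KO minus wild type, on the log2 scale (x axis), for genes grouped by role or by a small p. Points are estimates, bars 95% intervals, the solid line marks 0 and the dotted lines 1 log2 unit to either side. Groups labelled smallest p were chosen by their p, a choice that places their intervals off 0. Intervals of Nfkbia, Tnfaip3, Tnf and Sod2 lie within the dotted lines, whereas those of Il1a, Il1b, Il6, Il10 and Ifnb1 cross at least 1 of them.

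The cytokines that define the LPS response rose in both genotypes. Tnf held 78.0, 82.5, 141, 101 and 95.6 CPM in wild-type controls and 1776 to 2757 CPM (median 1858) with LPS. In KO it held 76.4 to 172 CPM (median 110.5) in controls and 2071, 2199, 1910 and 1777 CPM with LPS, inside the wild-type range. The responses of 4.32 ± 0.19 and 4.11 ± 0.21 differed by -0.21 ± 0.28, with a 95% interval from -0.79 to 0.38. Il1b, the cytokine processed by the inflammasome, held 998 to 2029 CPM (median 1107) in wild-type LPS libraries and 718, 775, 926 and 841 CPM in KO LPS libraries, so that all 4 KO values lay below all 6 wild-type values. Its controls ran from 7.81 to 63.4 CPM in wild type and from 21.7 to 64.3 CPM in KO, and with this spread the difference of -0.57 ± 0.74 had an interval from -2.08 to 0.95.

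Il6, a cytokine of low level in these cultures, held 5.62 to 46.5 CPM (median 34.0) in wild-type LPS libraries and 17.4, 16.3, 32.6 and 15.8 CPM in KO, and its difference was 0.19 ± 1.02. The anti-inflammatory cytokine Il10 reached 31.8 to 89.7 CPM (median 59.9) in wild type and 25.9, 25.4, 46.2 and 56.5 CPM in KO, a difference of -0.47 ± 0.80. Of 19 measured cytokine genes 13 rose in wild type and 11 in KO, the 2 called in wild type alone being Csf1 (difference -0.97 ± 0.53) and Il27, and 17 of the 19 had the more negative response in KO with a median of -0.51 and 0 called. Ebi3 (-0.54 ± 0.23) and Csf2 had an unadjusted p under 0.05. Csf2 was at 0 in all 5 wild-type controls and at 0.401 to 3.96 CPM in wild-type and 0.357 to 1.04 CPM in KO LPS libraries, too few counts for an interval. Ebi3 was -0.21 with the Xist covariate, and Csf2 had an unadjusted p of 0.9997 without KO control replicate 3. The median of the list was -0.29 without the 7 libraries that stand apart in earlier results of these data and 0.04 with the Xist covariate.

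Chemokine genes spread on both sides. Of 19 measured, 12 rose in wild type and 9 in KO, and the median difference was -0.34. The neutrophil chemokines Cxcl1 (7.04 ± 0.53 in wild type and 7.31 ± 0.56 in KO) and Cxcl2 (5.39 ± 0.31 and 5.63 ± 0.33) differed by 0.28 ± 0.77 and 0.24 ± 0.46. Ccl8, which recruits monocytes, was the 1 member with an unadjusted p under 0.05, at -3.64 ± 1.43, and it reached 38.9 CPM in 1 KO control while all 4 KO LPS libraries held 0.753 to 1.30 CPM. Without KO control replicate 6 it was -1.32, and with the Xist covariate it turned to 0.33. Immediate early genes rose in 20 of 24 cases in wild type and 19 of 24 in KO, moved in the same direction in all 24 and had a median difference of -0.12. Jund, a subunit of AP-1, was more positive in KO (0.61 ± 0.27, unadjusted p = 0.0316), and was 0.28 without KO LPS replicates 3 and 4.

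Among 13 interferon and interferon regulatory factor genes 7 were more positive and 6 more negative in KO, with a median of 0.01. Ifnb1, which encodes interferon β, was at or near 0 in all controls and reached 7.63 to 18.4 CPM (median 13.1) in wild-type LPS libraries and 5.79 to 13.7 CPM in the 4 KO libraries, overlapping ranges with a difference of -1.95 ± 1.74. Irf1, a transcription factor that LPS induces, rose by 2.25 ± 0.22 in wild type and 2.95 ± 0.24 in KO, a difference of 0.70 ± 0.32 (unadjusted p = 0.0382), which was 0.45 without KO LPS replicates 1 and 2. Irf2, its antagonist, held 10.7 to 16.8 CPM in wild-type LPS libraries and 4.54, 4.01, 5.91 and 4.59 CPM in KO, a difference of -1.57 ± 0.58 (unadjusted p = 0.0135). The difference of Irf2 was -0.001 (unadjusted p = 0.999) with the Xist covariate.

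The 36 interferon-stimulated genes had the most negative median of the functional lists, -0.84, with 35 of 36 more negative in KO and 0 called. Their errors were as large, with a median standard error of 0.90, and 0 rose or fell in either genotype by itself. Isg15, a ubiquitin-like antiviral protein, held 30.8, 29.2, 25.2, 49.9 and 16.6 CPM in wild-type controls, 30.3 to 79.6 CPM (median 76.6) with LPS, 2.19 to 135 CPM (median 12.1) in KO controls and 16.1, 22.8, 30.3 and 15.0 CPM with LPS in KO. The highest KO control lay above every other library of the 4 groups. The mean of the list spread likewise, from 2.99 to 7.44 log2 CPM over KO controls, and its median difference was 0.04 without KO control replicate 6, -0.33 without the 7 libraries that stand apart and 1.79 with the Xist covariate. Ifi44 was the 1 member with an unadjusted p under 0.05 (-3.89 ± 1.66), and it was -1.42 without KO control replicate 6 and 1.78 with the Xist covariate. Among cell type marker lists, medians were lower still for 12 fibroblast markers (-1.35, median standard error 1.16) and 5 endothelial and pericyte markers (-0.87, 0.64), with 0 called. Other marker lists ran from -0.62 for oligodendrocytes to 0.11 for border macrophages. The fibroblast marker Dcn differed by -3.27 ± 1.02 (edgeR unadjusted p = 0.00435), and by -1.40 with the Xist covariate (unadjusted p = 0.248).

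**Figure D4:**
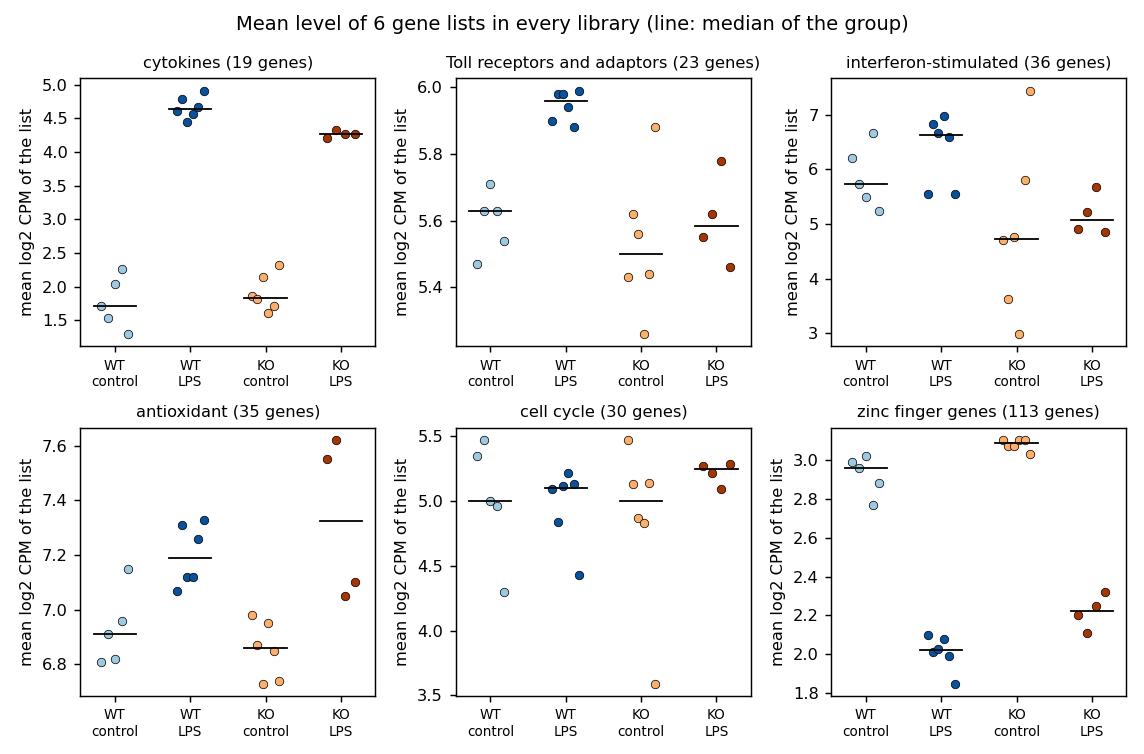
Mean log2 CPM of 6 gene lists (y axis) in every library, with groups on the x axis, 1 point per library and a line at the median of the group. Cytokine genes rise and zinc finger genes fall in both genotypes, the interferon-stimulated list ranges from 2.99 to 7.44 over KO controls, and the antioxidant list splits the 4 KO LPS libraries into a higher and a lower pair.

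Antioxidant and stress genes leaned the other way. Of 35 measured antioxidant genes 7 rose in wild type and 13 in KO, 27 had the more positive response in KO and the median difference was 0.23, with 0 called. Gsr, glutathione reductase, held 128, 140, 124, 127 and 133 CPM in wild-type controls and 132 to 173 CPM (median 141) with LPS. In KO it held 104 to 150 CPM (median 113) in controls and 215.4, 225.3, 143.9 and 158.8 CPM with LPS. KO LPS replicates 1 and 2 were above every other library, and the difference was 0.45 ± 0.16 (unadjusted p = 0.00904).

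The same pair of libraries carried Hmox1, heme oxygenase, which held 2295 and 2678 CPM in KO LPS replicates 1 and 2 and 815 and 719 CPM in replicates 3 and 4, beside 761 to 1895 CPM in wild-type LPS libraries (difference 0.56 ± 0.47). Without KO LPS replicates 1 and 2 the median of the antioxidant list was 0.01, the difference of Gsr 0.15 and that of Gclm 0.28. Gclm (0.69 ± 0.32), which makes glutathione, was more positive at an unadjusted p under 0.05 and Txn2 (-0.67 ± 0.30), mitochondrial thioredoxin, more negative (-0.18 with the Xist covariate). Sod2, the mitochondrial superoxide dismutase, rose by 1.32 ± 0.13 and 1.18 ± 0.14, a difference of -0.14 ± 0.19 (95% interval -0.52 to 0.25). Of 22 genes of endoplasmic reticulum stress, Xbp1 (0.33 ± 0.14) and Creld2 (0.54 ± 0.25) had a more positive response in KO at that p, with a median of 0.22 over the list. Without KO LPS replicates 1 and 2 the list median was 0.02, Creld2 was 0.01 (unadjusted p = 0.979) and Xbp1 0.13 (unadjusted p = 0.382).

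Cell cycle genes shared a direction without a call. All 30 measured genes had a more positive response in KO, with a median of 0.33 and a range from 0.02 to 0.76, and 0 had an unadjusted p under 0.05. Their median standard error was 0.43, and the list's median ranged from 0.07 to 0.48 under the 36 alternatives and was 0.16 without KO control replicate 6. Genes of 1 process vary together between libraries, so 30 shared signs are not 30 separate observations. Of all 21 libraries the lowest list mean was that of KO control replicate 6 (3.59 log2 CPM), followed by replicate 6 of the wild-type controls (4.30) and replicate 6 of wild-type LPS (4.43).

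A large set of zinc finger genes fell in both genotypes. Of 113 measured zinc finger genes, mostly transcriptional repressors, 82 fell in wild type and 78 in KO, 109 moved in the same direction and the median difference was 0.05. Zfp61 (chromosome 7, 24291039 to 24301232) was the member with the smallest p. It held 4.95, 5.98, 4.46, 4.17 and 6.54 CPM in wild-type controls and 0.751 to 1.44 CPM (median 1.02) with LPS, against 5.94 to 9.54 CPM (median 8.05) in KO controls and 3.31, 2.71, 3.33 and 3.35 CPM with LPS. LPS libraries lay below controls in both genotypes and the 2 LPS groups did not overlap. It fell by 2.29 ± 0.17 in wild type and by 1.28 ± 0.17 in KO, a difference of 1.01 ± 0.24 (95% interval 0.515 to 1.496, unadjusted p = 0.000226, edgeR adjusted p = 0.992), and of 0.58 with the Xist covariate. Zfp760 was more positive in KO as well (0.53 ± 0.23, unadjusted p = 0.0279).

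The smallest p of all belonged to Lpcat3 (chromosome 6, 124663027 to 124704418), which remodels membrane phospholipids and is a target of liver X receptors (LXR). It held 49.9, 53.3, 51.4, 47.5 and 48.0 CPM in wild-type controls and 40.3 to 53.9 CPM (median 45.8) with LPS. KO controls held 36.1 to 39.7 CPM (median 37.3) and KO LPS libraries 46.0, 48.8, 51.0 and 41.5 CPM. The genotypes were thus apart in controls and overlapped with LPS, where KO was not lower (0.03 ± 0.07). The response was -0.12 ± 0.07 in wild type (edgeR adjusted p = 0.30) and 0.33 ± 0.07 in KO (adjusted p = 0.00221), a difference of 0.45 ± 0.10 (95% interval 0.24 to 0.66). Its unadjusted p was under 0.05 in all 36 alternatives, from 1.5e-05 to 0.00416. Of 14 LXR genes the receptor gene Nr1h3 (0.58 ± 0.26) was the other member with an unadjusted p under 0.05, and the median was 0.26. Nr1h3 was 0.30 with the Xist covariate.

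**Figure D5:**
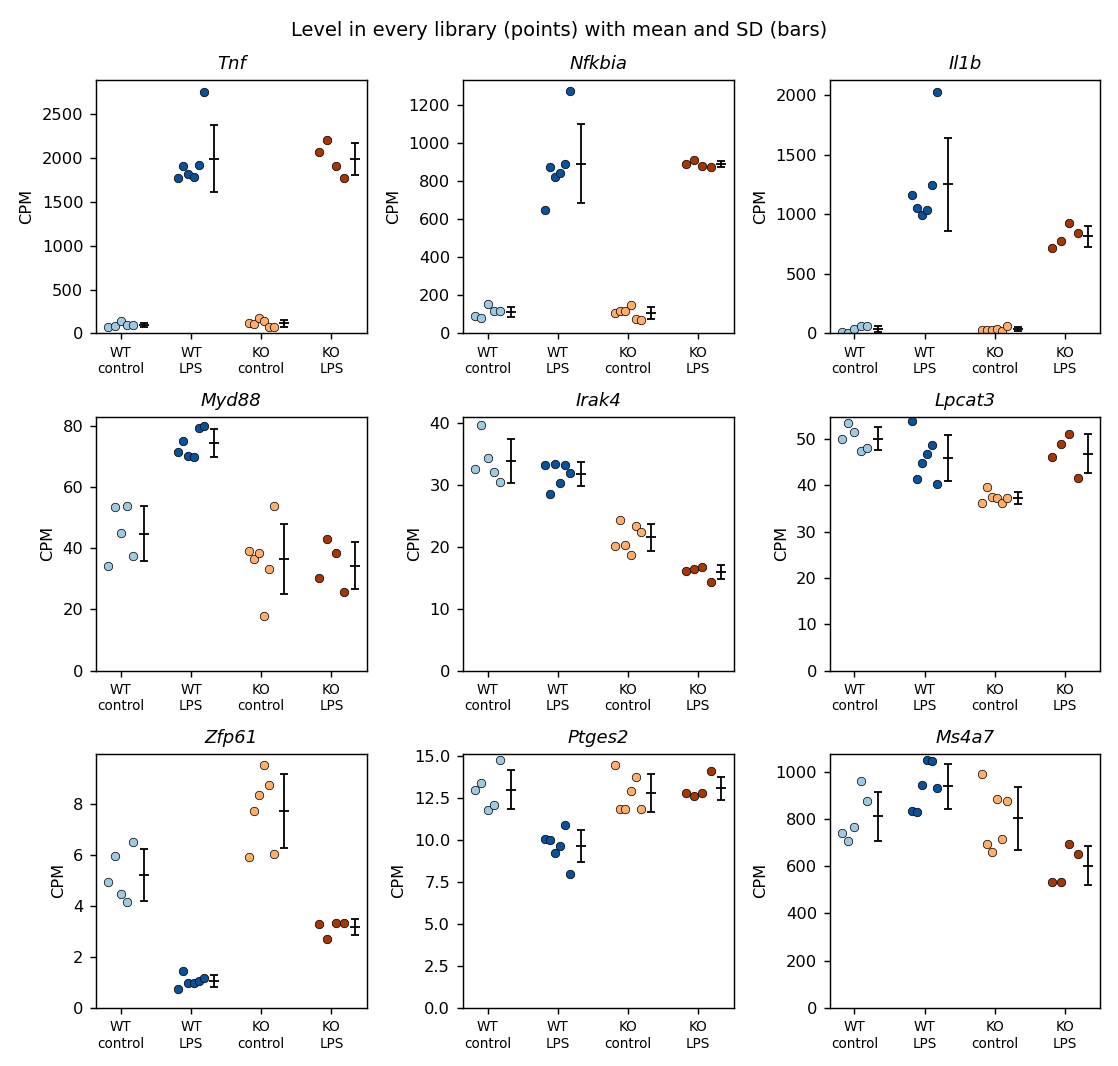
Level of 9 genes in every library (y axis, CPM, from 0), with groups on the x axis, 1 point per library and the mean with SD beside it. Tnf, Nfkbia and Il1b rise in both genotypes, Myd88 in LPS libraries is higher in wild type than in KO, Irak4 is lower in KO in both treatments, and Lpcat3 is lower in KO controls than in wild-type controls.

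Among genes with a mean of at least 2 log2 CPM, the 10 with the smallest p and a more positive response in KO were Lpcat3, Zmym1, Ptges2, Rpn1, Yif1b, Sh3bp5l, Kdm5d, Lias, Uty and Tmem41a, with unadjusted p from 0.000126 to 0.00425. Ptges2, a membrane-associated prostaglandin E synthase, fell in wild type from 12.95, 13.39, 11.79, 12.06 and 14.77 CPM to 7.99 to 10.9 CPM (median 9.82). In KO it held 11.8 to 14.5 CPM (median 12.4) in controls and 12.8, 12.6, 12.8 and 14.1 CPM with LPS. The wild-type groups did not overlap and the KO groups did, with a difference of 0.46 ± 0.13 (95% interval 0.20 to 0.72). Zmym1, a zinc finger gene, fell in both genotypes, by 0.92 ± 0.07 in wild type and by 0.51 ± 0.08 in KO, and Sh3bp5l likewise by 0.88 ± 0.09 and by 0.43 ± 0.10. Lias, lipoic acid synthetase, fell by 0.47 ± 0.08 in wild type (edgeR adjusted p = 2.97e-05) and was not called in KO (-0.12 ± 0.08).

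Several of these rested on few libraries. Rpn1, a subunit of the oligosaccharyltransferase, held 260 and 253 CPM in KO LPS replicates 1 and 2 but 199 and 188 CPM in replicates 3 and 4, and its difference of 0.39 ± 0.12 was 0.17 (unadjusted p = 0.148) without the first pair. Tmem41a, a membrane protein gene, moved from 0.65 ± 0.21 to 0.38 (unadjusted p = 0.108) without the same pair. Yif1b, a Golgi traffic gene, held 37.3, 38.8, 38.7 and 37.6 CPM in the KO LPS libraries, above all KO controls (29.3 to 36.3 CPM) and all wild-type LPS libraries (29.95 to 36.59 CPM). With the Xist covariate its difference went from 0.31 ± 0.10 to 0.18 (unadjusted p = 0.109), and that of Sh3bp5l to 0.28 (unadjusted p = 0.088). Kdm5d and Uty are Y-linked, their counts can share reads with their X-linked copies, and both moved with Ddx3y (0.91 ± 0.30) and Eif2s3y (0.92 ± 0.32), which are Y-linked too, and against Xist. With the Xist covariate, which is built from these genes, Kdm5d was 0.18 and Uty 0.39. Xist held 576, 826, 1238, 701 and 804 CPM in wild-type controls, 873 to 1624 CPM in wild-type LPS libraries, 422 to 1390 CPM in KO controls and 648, 493, 265 and 266 CPM in KO LPS libraries (difference -1.44 ± 0.49). No source used here says how the sexes were mixed in the cultures, so sex content and the KO LPS group cannot be told apart.

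The 10 with the smallest p and a more negative response in KO were Ms4a7, Evi2b, Cybc1, Noc4l, Ubxn2a, mt-Rnr1, Fyb, mt-Rnr2, Rps16 and Wdfy1, with unadjusted p from 0.00031 to 0.00275. Ms4a7, a membrane protein of macrophages (chromosome 19, 11321039 to 11336146), held 741, 709, 768, 962 and 877 CPM in wild-type controls and 832 to 1050 CPM (median 938) with LPS. In KO it held 660 to 992 CPM (median 795) in controls and 532, 534, 693 and 654 CPM with LPS. All KO LPS libraries lay below all wild-type LPS libraries, and the control groups overlapped. The response was 0.21 ± 0.10 in wild type (edgeR adjusted p = 0.209) and -0.41 ± 0.11 in KO (edgeR adjusted p = 0.0106). The difference was -0.63 ± 0.15 (95% interval -0.93 to -0.32). Ms4a7 is 1 of 7 measured border macrophage markers, of which 4 were more positive and 3 more negative in KO, with a median difference of 0.11.

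Evi2b, a membrane protein of blood cells, differed by -0.49 ± 0.12, with 76.6, 88.4, 102 and 86.6 CPM in KO LPS libraries, below all KO controls (105 to 121 CPM). Fyb, an adaptor of immune receptors, differed by -0.75 ± 0.21, with 160, 187, 258 and 178 CPM in KO LPS libraries, below all wild-type LPS libraries (305 to 400 CPM). Cybc1, which the NADPH oxidase of phagocytes needs, was higher in KO controls (62.6 to 78.5 CPM) than in wild-type controls (48.0 to 53.4 CPM) and overlapped with LPS (40.5 to 45.3 CPM in KO, 40.0 to 44.6 CPM in wild type). It fell by 0.28 ± 0.07 in wild type and by 0.66 ± 0.07 in KO, a difference of -0.38 ± 0.10. Ubxn2a, a cofactor of the segregase p97, was higher in KO controls (10.93 to 15.66 CPM) than in wild-type controls (8.36 to 10.81 CPM). With LPS the genotypes overlapped, at medians of 12.4 CPM in KO and 12.3 CPM in wild type. Ubxn2a rose in wild type (0.42 ± 0.09) and was not called in KO (-0.10 ± 0.10). Noc4l, a ribosome assembly factor, fell in KO (-0.36 ± 0.09) and was not called in wild type (0.12 ± 0.09).

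The remaining genes of that set are the least certain. The mitochondrial ribosomal RNAs mt-Rnr1 and mt-Rnr2 differed in libraries that had been depleted of ribosomal RNA, by -3.29 ± 0.87 and -1.66 ± 0.48. mt-Rnr1 held 633, 3040, 1976, 1310 and 1319 CPM in wild-type controls, 1635 to 10120 CPM in wild-type LPS, 579 to 10520 CPM in KO control and 1050, 765, 792 and 374 CPM in KO LPS libraries. Without KO control replicate 1 the difference of mt-Rnr1 was -1.94. Rps16 (-2.32 ± 0.68), a ribosomal protein gene with near-identical copies in the genome, held 35.0 to 177 CPM in wild-type and 7.38 to 14.7 CPM in KO LPS libraries, and its count is uncertain because reads can be shared with those copies. Wdfy1, a gene known to differ between C57BL/6 substrains, was higher in KO controls (26.3 to 52.4 CPM) than in wild-type controls (12.3 to 17.8 CPM) and differed by -0.93 ± 0.28. KO LPS replicates 1 and 2 held 23.6 and 23.7 CPM of Wdfy1 and replicates 3 and 4 held 14.6 and 14.7 CPM. With the Xist covariate the differences were -0.27 for Wdfy1 (unadjusted p = 0.304), -1.19 for Rps16 (unadjusted p = 0.136) and -1.03 for mt-Rnr2 (unadjusted p = 0.0839). Nnt, outside this set but also listed as differing between substrains, separated the genotypes in both treatments. It held 61.0 to 97.5 CPM in KO and 36.5 to 40.9 CPM in wild-type controls. With LPS it held 71.9 to 79.9 CPM in KO and 33.4 to 37.0 CPM in wild type. Its LPS response differed by 0.14 (edgeR unadjusted p = 0.321). Whether strain background beside Lrrk2 enters the genotype differences was not tested.

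The order of these genes is not fixed by the data. Lpcat3, Zmym1, Ptges2, Ms4a7, Evi2b, Cybc1, Noc4l, Ubxn2a, mt-Rnr1, Fyb and Zfp61 had an unadjusted p under 0.05 in all 36 alternatives, and the smallest adjusted p that any gene reached in any of them was 0.184, without KO control replicate 5. They were named for their small p-values, which are therefore a description. Between genotypes with LPS, 248 genes (1.73%) were called and in controls 46 (0.321%), and the difference of responses compares these 2 contrasts with the error of both.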

How the data were processed

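The deposited table holds expected counts per Ensembl transcript of mouse primary microglia, as whole numbers that the authors did not normalize. Stranded total RNA libraries were depleted of ribosomal RNA, per the labels' protocols. The submitters' processing notes name CASAVA 1.7.1, STAR 2.4.2a and mm10. No source used here names the counting program or its strand setting. Isoforms can share reads, so transcripts were summed to genes with GENCODE M21, which matched 91320 of 94647. No libraries were identical, and the closest replicates, KO LPS 1 and 2, differed beyond counting noise (chi-square per gene of 7.23, where noise alone gives about 1). The next closest pair, wild-type LPS 3 and 4, had 14.4, and the remaining pairs ran from 24.3 to 209. KO LPS 1 and 2 were fitted as separate replicates, and no source used here says whether they are.

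Genes passing the edgeR filter for 6 groups were scaled with TMM factors and fitted with a quasi-likelihood model of group means in edgeR 4.0.16 (R 4.3.3), with 24 residual degrees of freedom and a common coefficient of biological variation of 0.294. CPM uses the TMM-scaled library size, and mean log2 CPM a prior count of 2. The summed CPM of cell type markers are the exception and use the library total without TMM factors. Values are log2 ± standard error. Called means a Benjamini-Hochberg adjusted p under 0.05, adjusted over all genes tested. Where a group was at 0 the standard error is not given (173 genes). Genes were named by rule: the 10 smallest p of the difference in each direction with a mean of at least 2 log2 CPM, leaving out numbered names, the 6 most increased and 6 most decreased, 3 members of each list, and core LPS genes. Genes named for a sign, a shared read or a role were added after their values were seen. The members and gene lists were chosen with earlier results of these data known. Alternatives were RLE scaling and library size as the only scaling, a filter of 1 CPM in 4 libraries and none, limma-voom (limma 3.58.1), DESeq2 1.42.0, only the 4 groups, a replicate block, and each library left out. Others chosen after seeing the data were 2 marker scores and a surrogate variable (sva 3.50.0) as covariates, and leaving out 7 libraries that stand apart or pairs of KO LPS libraries. The pipeline was tested on simulated data. Upstream sequences came from RefSeq (GRCm38.p6).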

Additional observations from a re-analysis of the deposited data

Results flagged for a closer look

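In groups of 4 to 6 libraries, 16 of 168 groups over 42 genes had 1 library whose log2 CPM lay far from the rest by Dixon's criterion, which chance alone flags in about 1 of 20. Wild-type LPS replicate 6 was high for Tnf (11.43), Il1b (10.99) and Tnfsf9 (9.46) and low for Lrrk2 (3.52). KO LPS replicate 4 was high for Ptges2 (3.83) and low for mt-Rnr2 (12.23), and KO LPS replicate 3 was high for Il6 (5.03). KO control replicate 1 was high for mt-Rnr1 (13.36). KO control replicate 4, the shallowest library, was high for Yif1b (5.19) and low for Zfp760 (2.71). KO control replicate 5 was low for Cxcl1 (-3.42) and Socs3 (1.97). Wild-type control replicate 5 was low for Kdm5d (3.30) and Cybc1 (5.59), replicate 6 was low for Il10 (-3.42), and replicate 1 was high for Ifnb1 (-3.02). Ifnb1 held 0.0299 CPM in that library and 0 in the other wild-type controls. Where the others are tied at 0 the criterion flags any count, so the rate of 1 in 20 does not hold for this flag.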

How the results depend on the processing

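Under all 36 alternatives 0 genes were called for the difference. Library size as the only scaling gave 3827 calls in wild type and 5437 for the averaged response, moving the median of all genes to -0.23 in wild type and -0.21 in KO. In wild type 593 of the calls then rose and 3234 fell, and in KO 517 rose and 2318 fell. Without KO LPS replicates 1 and 2 there were 1032 calls in KO and a correlation over all genes of 0.507. Without replicates 3 and 4 the unadjusted count was 1251, the correlation 0.804 over responsive and 0.455 over all genes, the slope 1.31 and the median difference 0.086. With Xist minus Y-linked genes as a covariate the slope was 1.09, the median 0.069 and the correlation over all genes 0.518. Without a filter the unadjusted count was 1221 and the correlation over all genes 0.222. With the other-cell score the count was 912.

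Leaving out 1 library gave 1707 to 2307 calls in wild type, 1384 to 2225 in KO and 2939 to 3479 for the averaged response. Unadjusted counts ran from 428 to 947, highest without KO control replicate 4 and at 913 without KO LPS replicate 3. Correlations were 0.906 to 0.943 over responsive and 0.577 to 0.711 over all genes, slopes 0.885 to 1.01 and medians -0.04 to 0.02.

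Same-numbered libraries did not all deviate together (correlations from -0.506 to 0.63), although those of wild-type controls with wild-type LPS were all positive (0.005 to 0.63), and KO LPS has no replicate 5 or 6. The numbers were therefore not taken as pairs. A replicate block gave 0 calls and 588 unadjusted for the difference, with 2349 calls in wild type, 2097 in KO and 3567 averaged. Within genotype it gave 0 and 497, a median of 0.07 for cell cycle genes and of 0.73 for interferon-stimulated genes, where Ifi44 was -0.003. Genes under a mean of 2 log2 CPM had a median standard error of 0.76, beside 0.18 for the genes at or above it. Level alone did not order the lists. Interferon-stimulated genes, with list means of 2.99 to 7.44 log2 CPM, had a median standard error of 0.90. Zinc finger genes, with list means of 1.85 to 3.10, had one of 0.25. Whether depth sets these errors was not tested.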
